A study of Mus musculus with 16 samples.

Results

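The 38 Hox genes examined here lie in the 4 mouse Hox clusters and were chosen by name, as members of the Hoxa, Hoxb, Hoxc and Hoxd families, and not by any measured value. They are 38 of 21887 protein-coding genes of the GRCm38 annotation, and 1 further gene of the family of 39 is not analysed here. The clusters hold 10 members in Hoxa, 10 in Hoxb, 9 in Hoxc and 9 in Hoxd. Accessible chromatin was mapped by ATAC-seq, which uses a transposase to insert sequencing adapters into open DNA, in gonocytes, the germ cells that fill the testis cords before spermatogonia form. The 16 samples form 8 groups of 2: *Morc1* (+/-) and *Morc1* (-/-) gonocytes at the embryonic (E) stages E13.5 and E16.5 and the postnatal (P) days P0 and P3. Heterozygous animals are the only controls, there is no wild-type group, and every group carries the Mvh-Venus transgene, a fluorescent reporter of germ cells. MORC1 is a nuclear ATPase known as a factor that keeps transposons silent in the male germ line.

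Hox genes encode homeodomain transcription factors that give positional identity along the body axis. Within a cluster the genes all run in the same direction, and their order on the chromosome matches the order in which they are activated along the axis and in time, from group 1 anteriorly to group 13 posteriorly. Where they are not transcribed, Hox clusters are classic targets of Polycomb repression, and the CpG-rich promoters of many such genes are bivalent, with both activating and repressive histone marks, in pluripotent and germ cells. Retinoic acid signalling is a known activator of the anterior members.

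The data used are 1 peak list per group, made by the authors, with positions but no height or score, and no list belongs to a single sample. The P0 lists of the 2 genotypes were identical, as were those at P3, so 6 distinct lists were used: E13.5 heterozygous (het), E13.5 knockout (KO), E16.5 het, E16.5 KO, P0 and P3. They held 39559 to 67258 peaks. Sequencing depth is unknown, so a place without a peak had no called peak and was not shown to be closed. With 1 list per group there was no spread between samples and no test of genotype or stage, and intervals are 95% intervals that cover counting error only. At their starts, 5 to 7 of 8 germ-cell marker genes had a peak in each list, against 0 or 1 of 6 Sertoli cell, 1 of 5 Leydig cell, 2 of 4 endothelial, 0 of 4 blood and 1 or 2 of 4 peritubular or stromal genes. Over all genes 59.5% to 63.9% had one. The Sertoli cell genes *Sox9* and *Amh*, the endothelial genes *Pecam1* and *Cdh5* and the germ-cell gene *Tdrd1* had no start peak in any list, and *Dppa3* and *Pou5f1* had none in some. Other somatic markers did have one. The endothelial genes *Tek* and *Kdr*, the Leydig cell gene *Cyp11a1* and the peritubular gene *Myh11* had a start peak in every list. The Sertoli cell gene *Wt1* had one in every list but P3. Within gene bounds plus 2 kb, 6 or 7 of 8 germ-cell genes had a peak, against 70.1% to 75.8% of all genes. So did 2 to 4 of 6 Sertoli cell, 1 to 3 of 5 Leydig cell and 3 or 4 of 4 endothelial genes. Of the 4 blood genes 1 or 2 had one, and of the 4 peritubular or stromal genes 3 or 4. A part of somatic cells in the results was not tested. The start of *Morc1* itself had 1 peak in every list, which says nothing about the genotype. In bulk samples, fewer cells with an open site and a less open site per cell cannot be told apart.

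The Hox clusters were rich in peaks relative to the genome, and the number of peaks differed between lists more than the share of the list they made up. The 4 clusters, taken from 2 kb before the first to 2 kb after the last member with all sequence in between, span 501 kb. They held 22 peaks in E13.5 het, 22 in E13.5 KO, 27 in E16.5 het, 36 in E16.5 KO, 31 at P0 and 15 at P3. The E16.5 KO list had the most and the P3 list the fewest, and their exact Poisson intervals of 25.2 to 49.8 and 8.4 to 24.7 did not overlap, though the lists also differ in length. Peak density was 2.95, 3.02, 2.73, 3.42, 2.5 and 1.82 times that of the whole list, in the same order of lists. The interval of each ratio lay above 1. Relative to list length, the intervals of E16.5 KO (2.4 to 4.74) and P3 (1.02 to 3.0) overlapped. Against flanks of equal length on both sides of the clusters the ratios were smaller, 1.76, 1.57, 2.57, 2.67, 1.44 and 1.25. As a share of the list, Hox peaks made up 6.3 of every 10000 peaks in E16.5 KO and 3.35 at P3.

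The 4 clusters did not follow the same course. Hoxa (GRCm38 chr6:52160417-52262880) held 5, 6, 7, 9, 4 and 3 peaks in the lists from E13.5 het to P3. Hoxc (chr15:102919131-103038856) held 4, 6, 9, 9, 9 and 5. Hoxd (chr2:74666225-74767142) held 7, 5, 8, 8, 7 and 4. In these 3 clusters the E16.5 het and KO counts differed by at most 2 peaks. Hoxb (chr11:96192316-96370254), which has a long stretch between *Hoxb13* and *Hoxb9*, held 6, 5, 3, 10, 11 and 3. It stood at its lowest in E16.5 het and P3 and at its highest in E16.5 KO and P0, although the intervals of 3 peaks (0.619 to 8.77) and of 10 peaks (4.8 to 18.4) overlapped. Of genome tiles of the length of Hoxb, 55.5% held at least as many peaks in E16.5 het and 4.34% did in E16.5 KO.

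**Figure D1:**
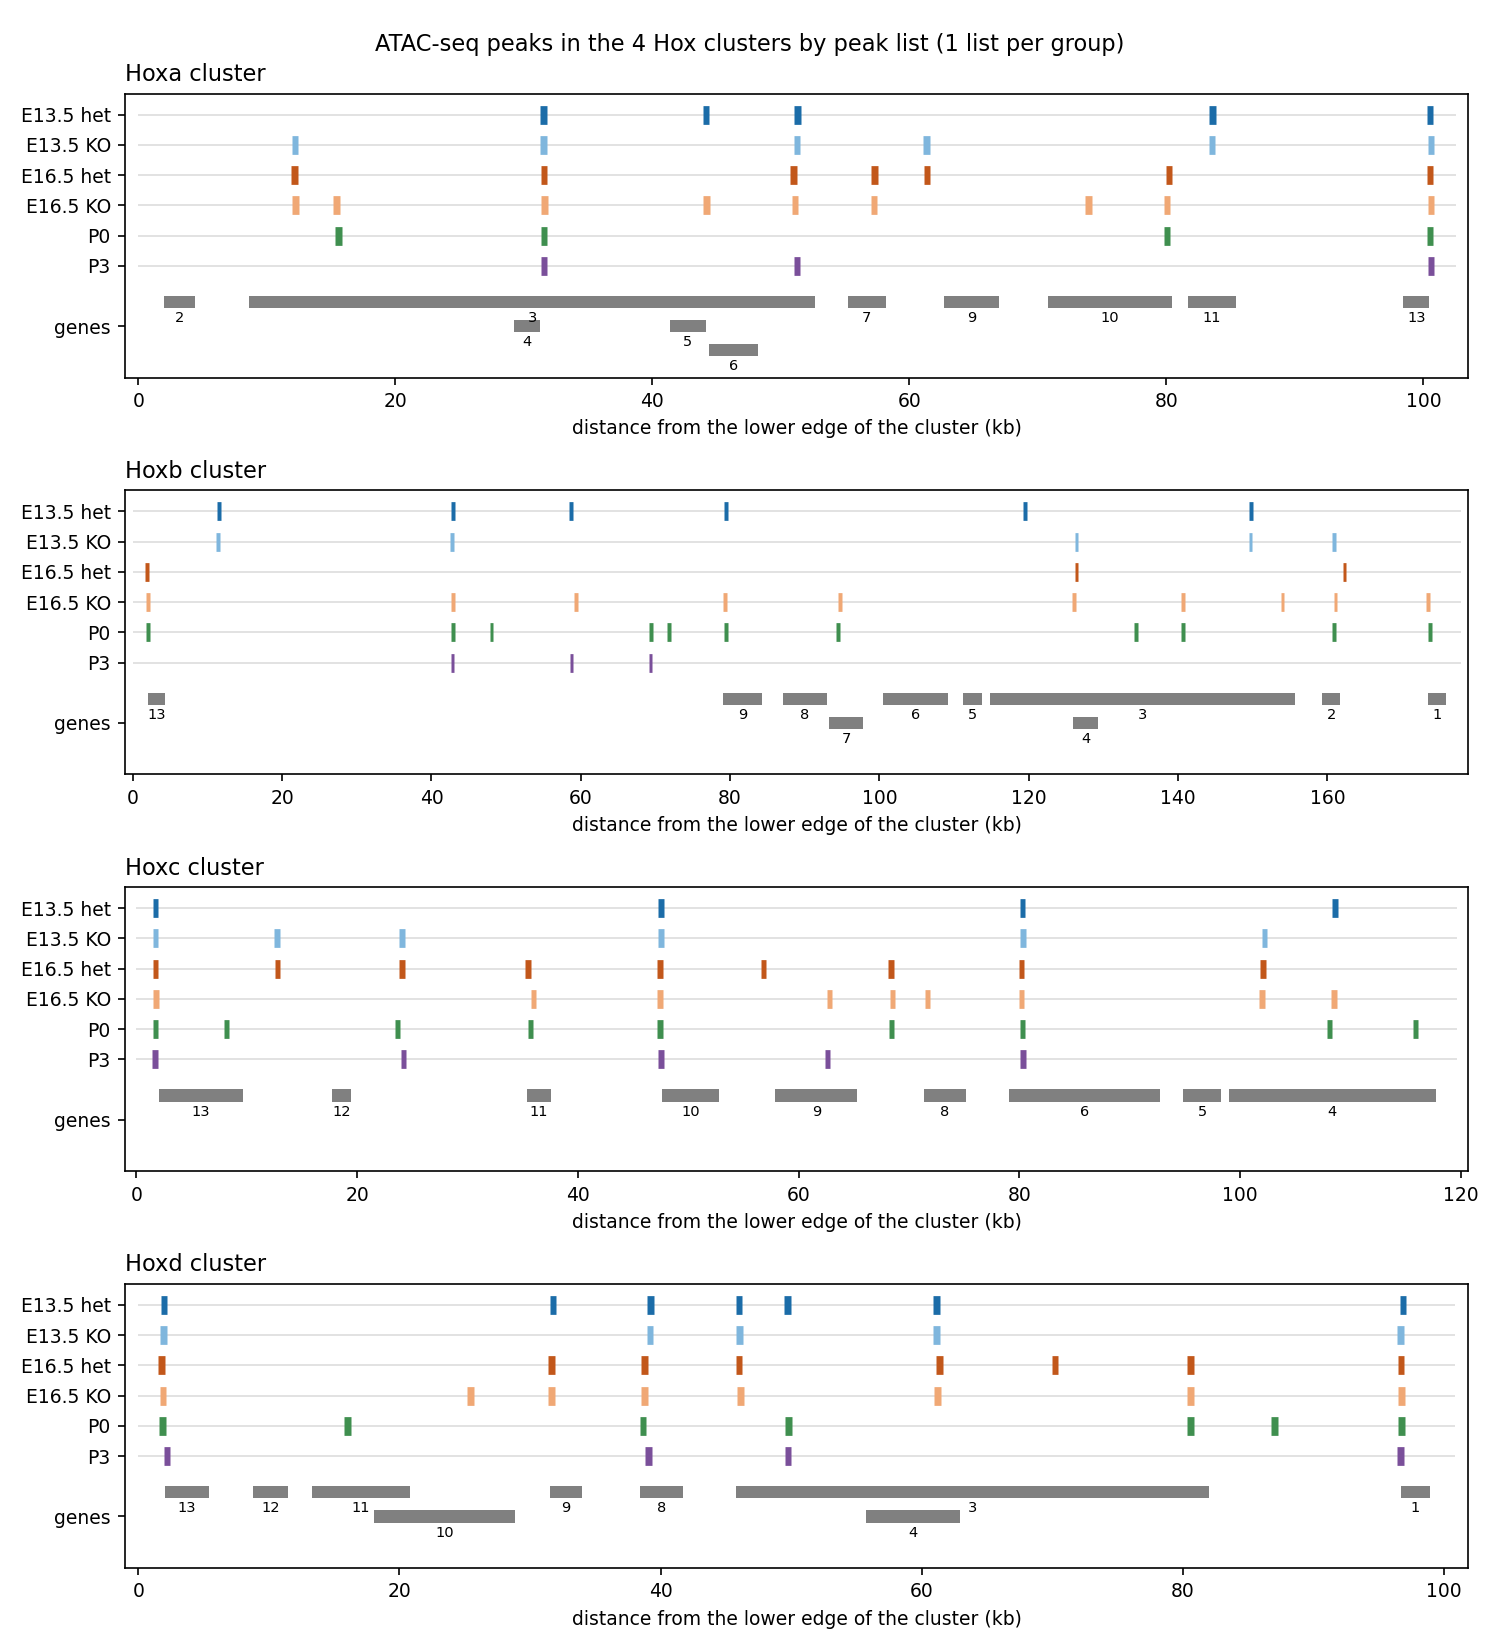
Peaks (coloured ticks, 1 line per peak list) along the 4 Hox clusters, with distance from the lower edge of each cluster in kb on the x axis and the annotated bounds of the member genes as grey bars numbered by paralog group. Columns of ticks at the starts of *Hoxa13*, *Hoxc13*, *Hoxc10*, *Hoxd13* and *Hoxd1* run through all 6 lists, and the Hoxb line of E16.5 het holds 3 ticks against 10 in E16.5 KO.

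**Figure D2:**
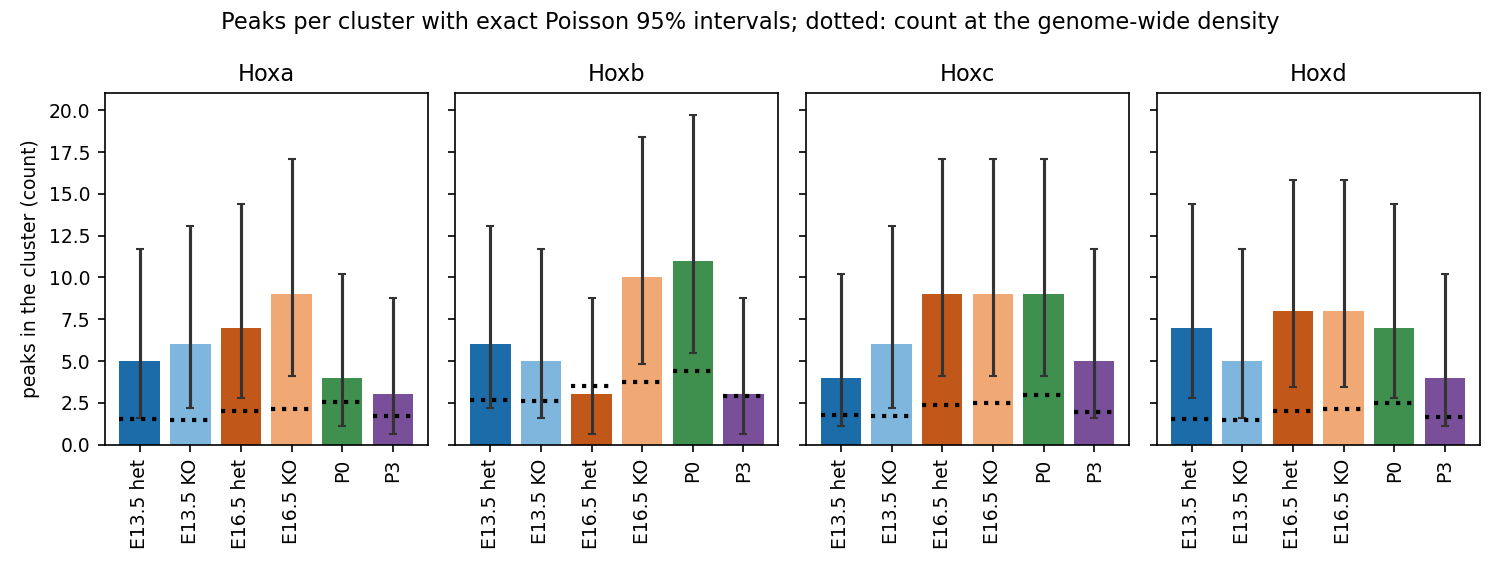
Number of peaks per cluster (y axis) in each of the 6 peak lists (x axis), with exact Poisson 95% intervals that cover counting error only and dotted lines at the count the density of the whole list would give. Hoxb goes from 3 peaks in E16.5 het to 10 in E16.5 KO and 11 at P0, while Hoxd holds 8 in both E16.5 lists.

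Although the clusters were dense in peaks, the share of single Hox genes with a peak was below that of all genes in every list but E16.5 KO. A peak lay within the gene bounds plus 2 kb of 18 of 38 members in E13.5 het, against 70.1% of all protein-coding genes. The count was 17 in E13.5 KO (all genes 70.2%), 23 in E16.5 het (72.2%), 30 in E16.5 KO (73.2%), 23 at P0 (75.8%) and 11 at P3 (70.5%). As shares of the members these are 47.4%, 44.7%, 60.5%, 78.9%, 60.5% and 28.9%. Across lists the share over all genes ranged from 70.1% to 75.8%, and the Hox share from 28.9% to 78.9%. Hox windows are short, with a median of 7.72 kb against 21.2 kb over all genes, and they overlap one another, so the same peak can count for more than 1 member.

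The same order of lists was seen at gene starts. A peak lay within 1 kb of a start of 12, 10, 17, 21, 17 and 8 members in the 6 lists. Over all genes the shares were 60.2%, 60.7%, 61.1%, 62.0%, 63.9% and 59.5%, and the Hox shares of 31.6%, 26.3%, 44.7%, 55.3%, 44.7% and 21.1% were below them in each list. For 16 members without a tabled start both outer ends of the gene were used. Over the 300 bases around the start of the 22 members with a tabled promoter, a peak was found for 6, 4, 6, 8, 5 and 3 members. Of all genes with a tabled promoter, 55.1%, 55.4%, 55.1%, 55.6%, 56.4% and 54.4% had one.

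**Figure D3:**
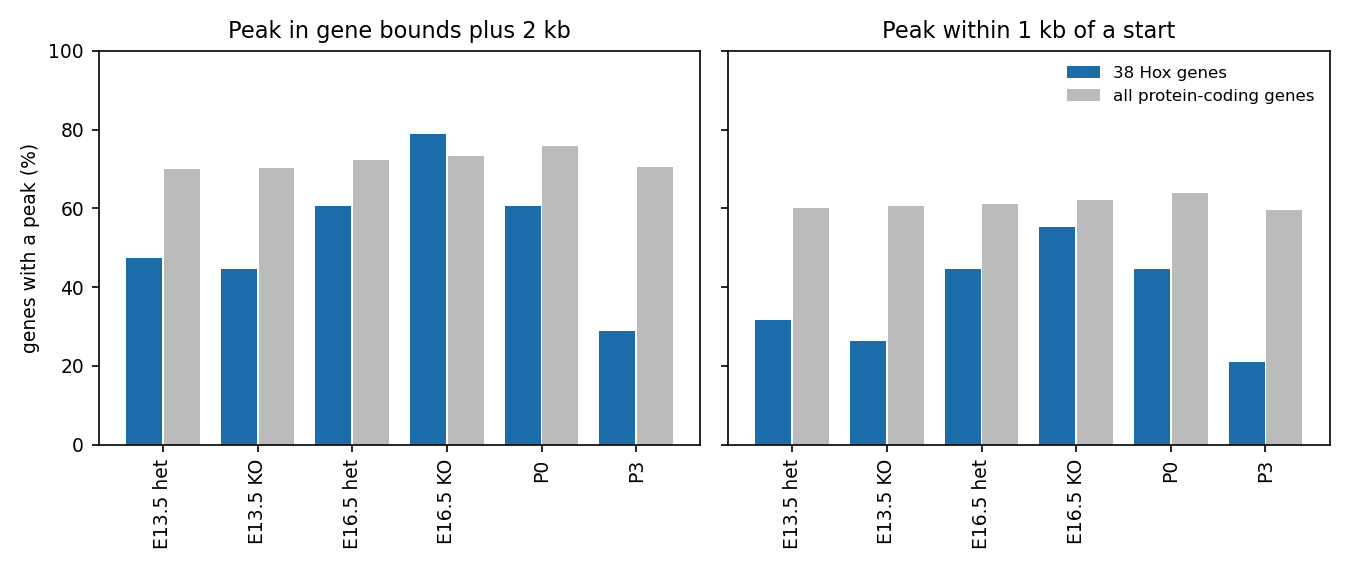
Percent of genes with a peak (y axis) in each list (x axis), for the 38 Hox genes (blue) and all protein-coding genes (grey), over gene bounds plus 2 kb (left) and within 1 kb of a start (right). The grey bars stay between 59.5% and 75.8% while the blue bars run from 21.1% to 78.9%.

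In all, 10 members had a peak in all 6 lists: *Hoxa3*, *Hoxa4*, *Hoxa13*, *Hoxc6*, *Hoxc10*, *Hoxc13*, *Hoxd1*, *Hoxd3*, *Hoxd8* and *Hoxd13*. That is 26.3% of the members, against 63.3% of all genes. None of the 10 belongs to Hoxb, 3 belong to Hoxa, 3 to Hoxc and 4 to Hoxd. Posterior group 13 supplied 3 of its 4 genes, and the fourth, *Hoxb13*, had a peak in 3 lists. In this group, *Hoxa13* and *Hoxd13* pattern the distal limb and the genital tubercle. Group 3 supplied *Hoxa3* and *Hoxd3*, genes of the hindbrain and pharyngeal arches, and *Hoxb3* had a peak in 5 lists. These 3 genes have the longest windows, 48.0, 40.3 and 44.8 kb. A peak lay at the start of *Hoxd3* in 4 lists and at that of *Hoxa3* and *Hoxb3* in none, and no single region of *Hoxd3* was in all 6 lists. In contrast, 6 members had no peak in any list (15.8%, against 20% of all genes): *Hoxa2*, *Hoxb5*, *Hoxb6*, *Hoxc5*, *Hoxc12* and *Hoxd12*. Both genes of group 12 and 2 of the 3 genes of group 5 were among them. The remaining 22 members had a peak in 1 to 5 lists.

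Merging the peaks of the 6 lists gave 56 regions, 11 in Hoxa, 19 in Hoxb, 14 in Hoxc and 12 in Hoxd. Of these, 8 were present in all 6 lists, 14.3% (exact binomial interval 6.38 to 26.2%) against 16.3% of the 107032 regions of the genome. All 8 were among the 25 regions at a gene start, whereas none of the 18 regions elsewhere in a member and none of the 13 between members was in every list. In Hoxa they lay at *Hoxa4* (chr6:52191687-52192266) and *Hoxa13* (chr6:52260619-52261227). The window of *Hoxa3*, whose long annotated bounds span *Hoxa4*, *Hoxa5* and *Hoxa6*, includes the *Hoxa4* region. In Hoxc they lay at *Hoxc13* (chr15:102920570-102921157), *Hoxc10* (chr15:102966310-102966918) and *Hoxc6* (chr15:102999096-102999739). In Hoxd they lay at *Hoxd13* (chr2:74667760-74668666), *Hoxd8* (chr2:74704622-74705704) and *Hoxd1* (chr2:74762679-74763350). A merged region counts as at a start even if single peaks in it do not, and the *Hoxc6* peak of E13.5 KO lay beyond 1 kb. The split into starts and other places was not made for the regions of the genome. It therefore cannot say whether constant regions at starts are particular to Hox genes.

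Peak position was steady at some of these starts and drifted at others. At *Hoxa13* the centre of the peak lay 11, -88, -87, -95, -75 and -97 bases from the start in the lists from E13.5 het to P3, with negative values upstream. At *Hoxd1*, an anterior gene at the far end of its cluster, it lay at 120, -47, -28, 15, 18 and -51. At *Hoxc10*, which takes part in hindlimb motor neuron identity, it lay at -128, -144, -207, -224, -236 and -137. These 3 sets spanned less than the 501-base width of a peak. At *Hoxd8* the centres lay at 839, 788, 403, 390, 257 and 689. There the peaks of the E13.5 lists did not overlap the P0 peak directly, and the region is joined through the other lists, so it is less a single site than the others. Starts of *Hoxa4*, *Hoxc6*, *Hoxc10* and *Hoxc13* are the upstream gene ends by the strand of their cluster.

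**Figure D4:**
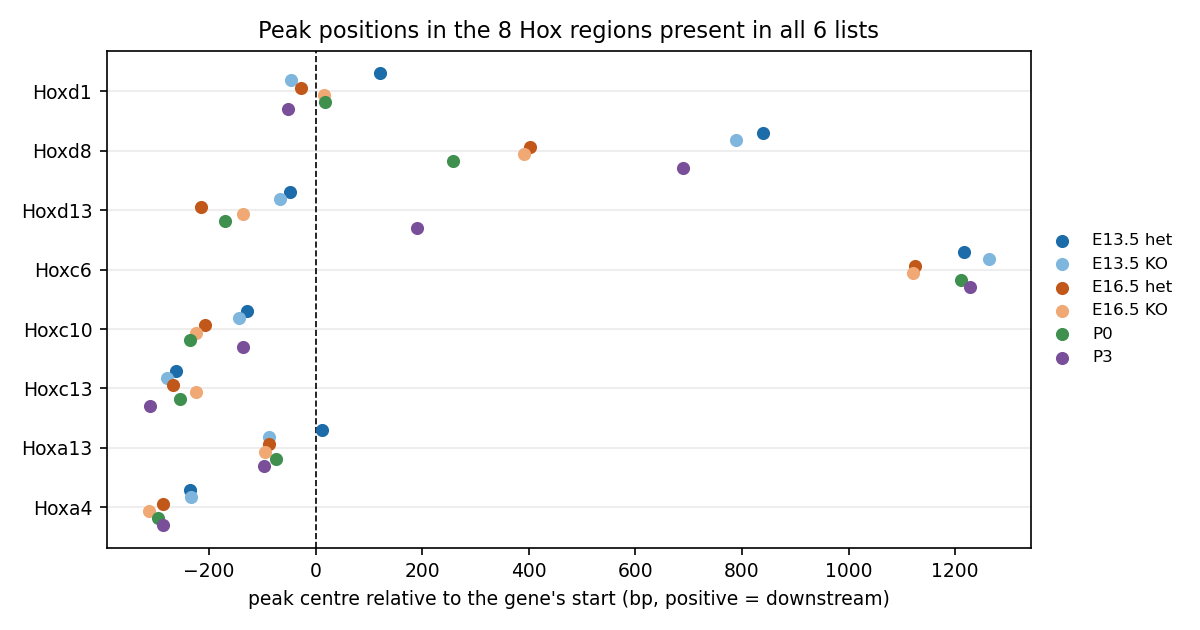
Distance of each peak centre from the nearest member start in bases (x axis, negative upstream) for the 8 regions present in all 6 lists (y axis, by gene), with points coloured by peak list. *Hoxa13* runs from -97 to 11, while *Hoxd8* runs from 257 to 839.

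The promoters of the 3 members with a peak over the start in all 6 lists and a tabled sequence are shown first, because they carry the constant peaks: *Hoxa13* (chr6:52260831-52261130, minus strand), *Hoxd13* (chr2:74667975-74668274, plus strand) and *Hoxd1* (chr2:74762730-74763029, plus strand). Sequences are from RefSeq, GRCm38.p6, 5′ to 3′, with 250 bases before and 50 after the start. Capitals mark bases inside a peak in every list that has a peak over that promoter.
Hoxa13: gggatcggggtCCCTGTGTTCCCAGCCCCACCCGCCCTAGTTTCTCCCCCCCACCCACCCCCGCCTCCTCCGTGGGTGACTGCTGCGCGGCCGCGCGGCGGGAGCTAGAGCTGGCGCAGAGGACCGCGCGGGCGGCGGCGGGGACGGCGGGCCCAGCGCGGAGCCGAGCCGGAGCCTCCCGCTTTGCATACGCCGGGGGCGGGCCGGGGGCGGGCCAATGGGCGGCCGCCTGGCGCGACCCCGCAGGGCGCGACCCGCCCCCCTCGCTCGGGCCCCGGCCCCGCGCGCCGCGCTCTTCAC
Hoxd13: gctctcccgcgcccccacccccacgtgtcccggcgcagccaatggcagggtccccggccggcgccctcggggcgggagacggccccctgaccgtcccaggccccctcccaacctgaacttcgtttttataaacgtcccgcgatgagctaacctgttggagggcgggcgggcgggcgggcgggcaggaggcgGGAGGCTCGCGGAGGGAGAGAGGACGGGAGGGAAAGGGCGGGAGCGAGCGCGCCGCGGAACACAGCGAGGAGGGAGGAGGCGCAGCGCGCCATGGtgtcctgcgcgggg
Hoxd1: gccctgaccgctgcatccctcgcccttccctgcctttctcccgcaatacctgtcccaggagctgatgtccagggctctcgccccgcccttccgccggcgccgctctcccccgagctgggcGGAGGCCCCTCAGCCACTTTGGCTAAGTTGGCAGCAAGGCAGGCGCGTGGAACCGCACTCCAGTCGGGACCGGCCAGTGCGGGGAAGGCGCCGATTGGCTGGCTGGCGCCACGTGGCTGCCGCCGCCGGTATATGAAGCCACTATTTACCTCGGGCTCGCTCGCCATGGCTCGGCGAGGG
The common stretch covers 289, 95 and 180 of the 300 bases. These promoters are CpG-rich, with 45 CpG dinucleotides in *Hoxa13*, 37 in *Hoxd13* and 29 in *Hoxd1*. Their GC content is 81.0%, 74.3% and 69.7%, against a median of 57.7% over the 24 tabled Hox promoters.

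Next come 2 promoters covered by a peak in 3 lists. *Hoxd3* (chr2:74711743-74712042, plus strand) had one in E13.5 het, E13.5 KO and E16.5 het. *Hoxd9* (chr2:74697513-74697812, plus strand) had one in E13.5 het, E16.5 het and E16.5 KO. For contrast, *Hoxb1* (chr11:96365508-96365807, plus strand) had a promoter peak in E16.5 KO alone and *Hoxd12* (chr2:74674763-74675062, plus strand) in no list.
Hoxd3: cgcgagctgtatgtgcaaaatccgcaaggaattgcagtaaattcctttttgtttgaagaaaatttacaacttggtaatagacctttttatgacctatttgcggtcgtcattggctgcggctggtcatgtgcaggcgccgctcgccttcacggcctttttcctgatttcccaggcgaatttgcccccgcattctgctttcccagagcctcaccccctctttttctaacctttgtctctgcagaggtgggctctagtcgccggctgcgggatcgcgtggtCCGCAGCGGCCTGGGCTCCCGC
Hoxd9: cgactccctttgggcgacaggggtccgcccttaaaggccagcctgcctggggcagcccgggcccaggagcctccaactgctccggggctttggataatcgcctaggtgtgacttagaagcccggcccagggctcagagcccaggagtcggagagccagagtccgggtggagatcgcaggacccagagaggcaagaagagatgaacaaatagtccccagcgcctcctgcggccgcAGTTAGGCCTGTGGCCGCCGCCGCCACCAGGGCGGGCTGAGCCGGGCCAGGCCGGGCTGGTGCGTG
Hoxb1: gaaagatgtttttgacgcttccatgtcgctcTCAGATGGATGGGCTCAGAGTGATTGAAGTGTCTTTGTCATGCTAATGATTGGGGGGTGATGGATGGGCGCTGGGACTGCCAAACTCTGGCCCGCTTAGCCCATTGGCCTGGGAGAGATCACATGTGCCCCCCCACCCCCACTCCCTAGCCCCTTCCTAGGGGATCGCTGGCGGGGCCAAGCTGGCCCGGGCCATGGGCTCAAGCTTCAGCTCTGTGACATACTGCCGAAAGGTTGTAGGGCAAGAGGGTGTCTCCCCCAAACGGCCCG
Hoxd12: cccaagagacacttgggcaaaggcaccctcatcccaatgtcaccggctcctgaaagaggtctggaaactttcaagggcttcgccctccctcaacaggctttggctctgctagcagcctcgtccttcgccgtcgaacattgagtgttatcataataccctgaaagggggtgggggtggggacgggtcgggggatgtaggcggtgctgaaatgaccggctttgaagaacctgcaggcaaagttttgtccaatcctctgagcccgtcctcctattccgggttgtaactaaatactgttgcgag
The peaks covered the last 50, 22 and 41 bases of the *Hoxd3* promoter in those 3 lists and the last 66, 182 and 179 of *Hoxd9*. Their common stretch is 22 and 66 bases. In E16.5 KO the same *Hoxd3* region also had a peak, which began past the end of the promoter window. Its centre lay 350 bases from the start, against 250 in E13.5 het, 278 in E13.5 KO and 259 in E16.5 het. The *Hoxd3* start peak was thus not absent from E16.5 KO. The E16.5 KO peak covered 269 bases of *Hoxb1*, the anterior gene expressed in the hindbrain. CpG counts are 20, 20, 10 and 13 in the order shown.

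Hox promoters covered by a peak in more lists held more CpG dinucleotides. The median was 11 (range 4 to 26) in the 12 promoters with a peak in no list, 20 (6 to 29) in the 9 with a peak in 1 to 3 lists and 37 (29 to 45) in the 3 with a peak in all lists. Over all genes the medians were 3, 10 and 22 for 0, 1 to 3 and 4 to 6 lists, so the order is the same there and Hox promoters held more CpG in each class. Motifs were searched on both strands, some of these sites can overlap, and a match is a description of letters, not of binding. The NFY motif CCAAT was found in 15 of 24 Hox promoters, against 38.2% of all 21263 promoters. The SP motif GGGCGG was found in 10 of 24 (all promoters 46.2%), with 6 matches in *Hoxa13* and 7 in *Hoxd13*. The E-box CACGTG was found in 5 (7.84%) and the PBX-HOX motif TGATNNAT in 4 (7.45%). The NRF1 motif, GCGCA joined to its reverse complement (1.33%), the CTCF core, CCAC, any base, AGG, any base, GG (0.71%), and the retinoic acid DR5 motif, AGGTCA repeated after a spacer of 5 bases (0.0047%), had no match in these windows.

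From E13.5 to E16.5, more members had a new peak in their window than had one missing, in both genotypes. In het, 8 members without a peak at E13.5 had one at E16.5 (21.1%, against 5.41% of all genes) and 3 had one at E13.5 only (7.89%, against 3.26%). In KO the counts were 14 (36.8%, against 5.6%) and 1 (2.63%, against 2.62%). In both genotypes 5 members were new at E16.5 (13.2%, against 3.2%): *Hoxa7*, *Hoxa10*, *Hoxb13*, *Hoxc9* and *Hoxc11*. No member was missing at E16.5 in both genotypes (all genes 1.29%). The E16.5 lists are also longer, with 53687 (het) and 57117 (KO) peaks against 40448 and 39559 at E13.5. Per 10000 peaks of the list, Hox peaks went from 5.44 to 5.03 in het and from 5.56 to 6.3 in KO. At E13.5 the share of members with a peak was 47.4% in het (all genes 70.1%) and 44.7% in KO (all genes 70.2%). A larger share of members could thus have a new one. The part of both in the counts was not tested.

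Of the 5 genes new in both genotypes, 3 had a peak at the start that was also in the P0 list and not in the P3 list. *Hoxa10*, a posterior gene needed in the uterus and male tract, had peak centres 238, 375 and 404 bases from its start in E16.5 het, E16.5 KO and P0. At *Hoxb13*, known for its role in the prostate, they lay at -64, -18 and -21. At *Hoxc11* they lay at 97, 569 and 290. *Hoxa7* had a start peak in both E16.5 lists only, and *Hoxc9* had 1 peak in E16.5 het, at -1057 bases from its start, and another inside the gene (chr15:102981485-102982187) in E16.5 KO and P3. Among the patterns of 2 to 5 lists, that of both E16.5 lists and P0 was the most common, with 5 of 56 regions (8.93%, genome 6.28%). Another 3 regions (5.36%, genome 0.247%) were in E13.5 KO and both E16.5 lists: inside *Hoxa3* (chr6:52172318-52172901), at *Hoxb4* (chr11:96318183-96318991) and inside *Hoxc4* (chr15:103020926-103021558).

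At E13.5 the genotypes had equal numbers of Hox peaks, but not the same ones. Of 22 peaks in each list, 15 were shared and 7 were private to the list, 31.8% (13.9 to 54.9%) in both directions. Over the whole lists 21.3% of het and 19.6% of KO peaks were private. Members with a peak in het only were *Hoxa5*, *Hoxa6*, *Hoxb9* and *Hoxd9*, 10.5% against 1.87% of all genes. Members with a peak in KO only were *Hoxa9*, *Hoxb2* and *Hoxb4*, 7.89% against 1.99%. *Hoxa5* and *Hoxa6* share 1 peak, over the start of *Hoxa5* (chr6:52204354-52204869), a gene of lung and axial patterning.

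Nearly all of the E13.5 private regions were met again in another stage. Of the 7 het regions 6 recurred, against 43.5% of such regions in the genome, and of the 7 KO regions all 7 did, against 45.8%. The *Hoxd9* start region (chr2:74697631-74698247), present in het at E13.5, was found in het and KO at E16.5. The *Hoxb4* start region above was in KO at E13.5 and in both genotypes at E16.5. The *Hoxa5* and *Hoxb9* (chr11:96271333-96271997) regions were in het at E13.5 and in KO at E16.5, so the genotype that held them was the opposite one. A region between *Hoxa7* and *Hoxa9* (chr6:52221506-52222015) went the other way, with E13.5 KO and E16.5 het. The further E13.5 het regions that recurred were chr11:96250792-96251301 (also at P3), chr15:103027014-103027932 in *Hoxc4* (also in E16.5 KO and at P0) and chr2:74715716-74716267 in *Hoxd3* (also at P0 and P3). On chr15, the regions 102931602-102932183 and 102942533-102943591 beside *Hoxc12* were in E13.5 KO and E16.5 het, and the second was also at P0 and P3.

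At E16.5 more Hox genes and regions had a peak in KO only than in het only, and Hoxb held most of the difference. Members with a peak in KO only were *Hoxa5*, *Hoxa6*, *Hoxb1*, *Hoxb7*, *Hoxb8*, *Hoxb9*, *Hoxc8* and *Hoxd10*, which is 8 or 21.1%, against 2.89% of all genes. The only member with a peak in het only was *Hoxa9*, which is 2.63%, against 1.95%. Of the 15 members without a peak in het, 8 had one in KO (53.3%), against 10.4% of all genes without a het peak. The 2 sets differ in make-up. Of the 6082 genes without a het peak 4375 had no peak in any list, and of the 15 members 6 had none. *Hoxa5* and *Hoxa6* rest on 1 peak, as do *Hoxb7* and *Hoxb8*.

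Of the 36 Hox peaks in the E16.5 KO list 15 had no overlap in het, 41.7% (25.5 to 59.2%) against 23.5% of the whole list. In the other direction 6 of 27 het peaks had no overlap in KO, 22.2% (8.62 to 42.3%) against 18.6%. In Hoxb, 8 of 10 KO peaks were private, 80.0% (44.4 to 97.5%). With Hoxb left out the share was 7 of 26, 26.9% (11.6 to 47.8%), and 4 members had a peak in KO only. The KO list is longer than the het list by a factor of 1.06. Chromosome 11, where Hoxb lies, had 2113 peaks in KO and 1788 in het, and its KO-only share of 28.3% was at the top of the range of 20.2 to 28.3% over the 19 autosomes. The flanks of Hoxb held 6 peaks in het and 9 in KO. The part of list length and of chromosome 11 in the Hoxb count was not tested.

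Most of the Hoxb regions private to E16.5 KO were present again at P0. Of the 8, 6 were in the P0 list, against 49.0% of the KO-only regions of the genome. They lie about 36 kb upstream of *Hoxb9* (chr11:96234843-96235444, in every list but E16.5 het), at the start of *Hoxb9*, at *Hoxb7* (chr11:96286556-96287242), inside *Hoxb3* (chr11:96332740-96333291), at *Hoxb2* (chr11:96352946-96353646, also in E13.5 KO) and at *Hoxb1* (chr11:96365539-96366336). At *Hoxb1* the E16.5 KO peak covered the start, and the P0 peak lay downstream of it, with its centre at 328 bases. In *Hoxb9*, a thoracic patterning gene, the peak centres lay 417, 253 and 398 bases from the start in E13.5 het, E16.5 KO and P0. Over all 4 clusters, 8 of 15 KO-only regions were in the P0 list, near the genome share of 49.0%. The 2 of these 8 outside Hoxb lie in *Hoxa3* (chr6:52175589-52176233) and in *Hoxc4* (chr15:103027014-103027932). Of the het-only regions 1 of 6 was in the P0 list, against 45.4% in the genome. Members with a peak in E16.5 KO and P0 but not in E16.5 het were *Hoxb1*, *Hoxb7*, *Hoxb8*, *Hoxb9* and *Hoxd10*, 13.2% against 2.06% of all genes, and no member had the reverse pattern (all genes 1.28%). For *Hoxd10* the peaks differed, since the KO peak lay at its own start (chr2:74691433-74691933) and the P0 peak at the start of *Hoxd11* (chr2:74682009-74682509). At *Hoxc8* the start peak (chr15:102990575-102991075) was in E16.5 KO alone. The P0 list is the same for both genotypes, so it cannot say which genotype the P0 peaks belong to.

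**Figure D5:**
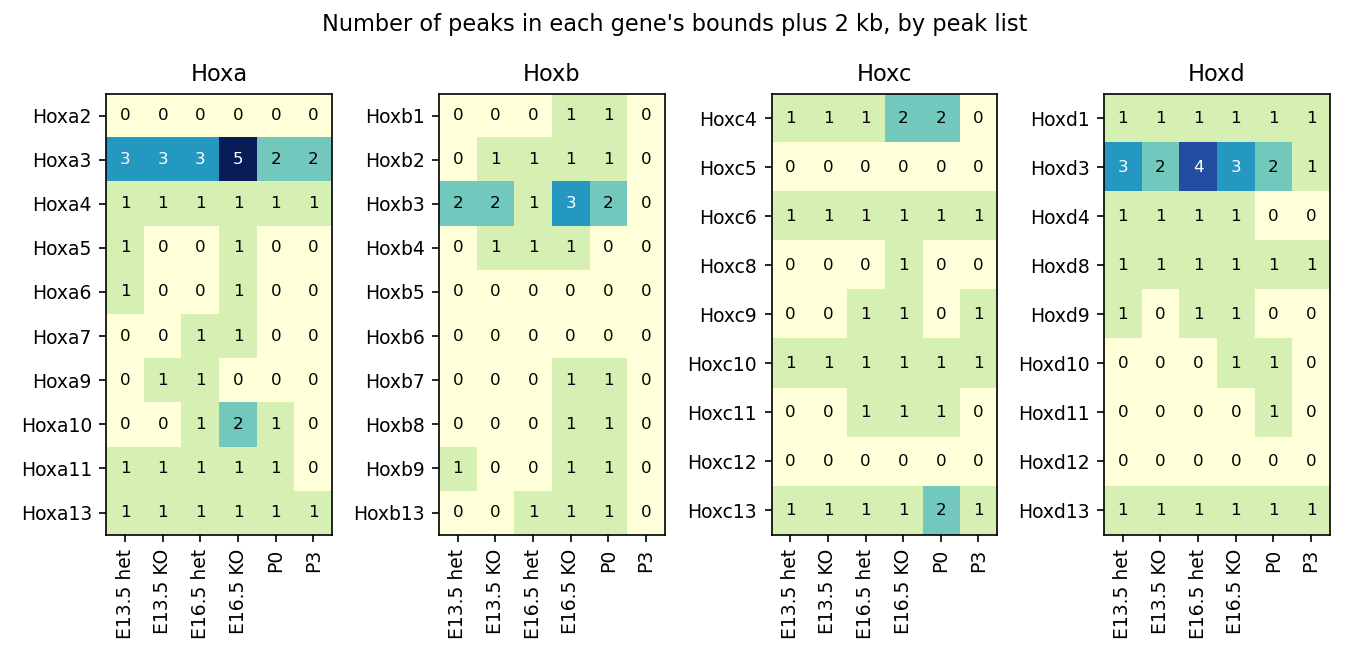
Number of peaks in the gene window (bounds plus 2 kb, colour and printed number) of each of the 38 Hox genes in each of the 6 lists. The Hoxb genes have no peak at P3, and *Hoxa3* has the most, 5, in E16.5 KO.

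From E16.5 to P0 a smaller share of the Hox peaks than of the whole lists was met again. Of the 27 E16.5 het peaks 14 overlapped a P0 peak, 51.9% (31.9 to 71.3%) against 78.0% of the list. Of the 36 E16.5 KO peaks 21 did, 58.3% (40.8 to 74.5%) against 76.8%. Both comparisons use the same P0 list. Members with a peak in E16.5 het and none at P0 were *Hoxa7*, *Hoxa9*, *Hoxb4*, *Hoxc9*, *Hoxd4* and *Hoxd9*, 15.8% against 1.8% of all genes. From KO, 8 members had none at P0 (21.1%, against 1.97%): *Hoxa5*, *Hoxa6*, *Hoxa7*, *Hoxb4*, *Hoxc8*, *Hoxc9*, *Hoxd4* and *Hoxd9*. New at P0 were 6 members relative to het (15.8%, against 5.37%) and 1, *Hoxd11*, relative to KO (2.63%, against 4.59%). Of the 31 P0 peaks, 45.2% (27.3 to 64.0%) overlapped an E16.5 het peak and 67.7% (48.6 to 83.3%) an E16.5 KO peak, against 62.3% and 65.2% of the whole P0 list. In Hoxb it was 1 of 11 for het and 7 of 11 for KO. With Hoxb left out it was 65.0% (40.8 to 84.6%) for het and 70.0% (45.7 to 88.1%) for KO.

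Between P0 and P3 many Hox genes with a peak in the earlier list had none in the later list. Members with a peak at P0 and none at P3 numbered 13 (34.2%, against 6.37% of all genes): *Hoxa10*, *Hoxa11*, *Hoxb1*, *Hoxb2*, *Hoxb3*, *Hoxb7*, *Hoxb8*, *Hoxb9*, *Hoxb13*, *Hoxc4*, *Hoxc11*, *Hoxd10* and *Hoxd11*. That is 13 of the 23 members with a P0 peak, 56.5%, against 8.41% over all genes. With Hoxb left out it was 6 of 16, 37.5%. Of these 13, *Hoxa10* and *Hoxa11* rest on the same P0 peak, as do *Hoxb7* and *Hoxb8*, and *Hoxd10* and *Hoxd11*. Hox windows are also shorter, with a median of 7.72 kb against 21.2 kb over all genes. The part of both in this contrast was not tested. Only *Hoxc9* was new at P3 (2.63%, against 1.05%). Of the 31 P0 peaks 11 overlapped a P3 peak, 35.5% (19.2 to 54.6%) against 55.7% of the list, and without Hoxb it was 9 of 20, 45.0% (23.1 to 68.5%). In the other direction 11 of 15 P3 peaks overlapped a P0 peak, 73.3% (44.9 to 92.2%) against 83.6% of the list. No Hoxb gene had a peak in its window at P3, where the 3 Hoxb peaks all lay between *Hoxb13* and *Hoxb9*. The 11 members with a peak at P3 were the 10 with a peak in all lists and *Hoxc9*. The P3 list is also shorter than the P0 list, with 44760 against 67258 peaks. Germ-cell markers with a start peak numbered 7 of 8 at P0 and 5 at P3, and Sertoli cell markers 1 of 6 and 0, and their part in the difference was not tested. No Hox region was found at P3 alone, against 3.17% of regions in the genome.

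Between the 56 regions, stretches without a peak in any list were shorter than in the genome, with a median of 6.91 kb over 52 stretches against 13.8 kb over 107011. The longest were 30.8 kb in Hoxb between *Hoxb13* and *Hoxb9* and 24.4 kb in Hoxb holding *Hoxb5* and *Hoxb6*, whose products act in the trunk. In Hoxc the longest was 21.2 kb and held *Hoxc5*, in Hoxa 16.4 kb from *Hoxa11* to *Hoxa13*, and in Hoxd 13.3 kb holding *Hoxd12*. Paralogs, the genes of the same number in different clusters, often differed in how many of the 6 lists held a peak. In the anterior groups, *Hoxb1* and *Hoxd1* had 2 and 6, *Hoxa2* and *Hoxb2* had 0 and 4, and *Hoxa4*, *Hoxb4*, *Hoxc4* and *Hoxd4* had 6, 3, 5 and 4. In groups 5 to 8, *Hoxa5*, *Hoxb5* and *Hoxc5* had 2, 0 and 0, *Hoxa6*, *Hoxb6* and *Hoxc6* had 2, 0 and 6, *Hoxa7* and *Hoxb7* had 2 each, and *Hoxb8*, *Hoxc8* and *Hoxd8* had 2, 1 and 6. In the posterior groups, *Hoxa9*, *Hoxb9*, *Hoxc9* and *Hoxd9* had 2, 3, 3 and 3, *Hoxa10*, *Hoxc10* and *Hoxd10* had 3, 6 and 2, and *Hoxa11*, *Hoxc11* and *Hoxd11* had 5, 3 and 1. Of the 5 lists of *Hoxa11*, only the E13.5 lists have a peak inside the gene. In E16.5 het, E16.5 KO and P0 it is the peak at the *Hoxa10* start, which lies in the flank of *Hoxa11*. High and low values were found in anterior and posterior groups alike, and no order along the cluster was tested.

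Known regulators of Hox clusters were compared at their starts, where 59.5% to 63.9% of all genes had a peak. Of 13 Polycomb genes, which encode the repressive complexes, 11 or 12 had a start peak in each list and 11 had one in all 6, and *Pcgf2* had none in any. All 6 trithorax genes, which encode the opposing H3K4 methylation complexes, had one in every list. Of the 9 genes of PBX, MEIS and PKNOX cofactors, which bind DNA together with HOX proteins, 6, 6, 5, 5, 7 and 6 had a start peak in the 6 lists, close to the share over all genes. *Meis1* and *Meis2* had none in any list, and *Pbx2* had one at P0 alone. Of 8 homeobox genes at the cluster ends or in the related ParaHox group, 4, 6, 6, 6, 6 and 4 had one. *Evx1* and *Evx2*, the neighbours of Hoxa and Hoxd, had none.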

How the data were processed

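ATAC-seq peak lists of gonocytes from *Morc1* (+/-) and (-/-) mice were used, grouped by the sample titles. The authors deposited each list as peak coordinates in 3 columns, nearly all of 1 width, with no score, so the depth behind a list is unknown. The submitters' processing notes name bcl2fastq 2.20, cutadapt 1.18, Bowtie2 2.3.4.1, deepTools 3.5.0, HOMER 4.10 and the build mm10. The settings, peak threshold, duplicate handling and pooling of the 2 samples of a group are not given in the sources used here, and all can move the number of peaks.

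From these lists, peaks overlapping a window by at least 1 bp were counted. Gene windows were GRCm38 gene bounds plus 2 kb from a RefSeq table with outer bounds only, so exons and introns were not assigned. Start windows were 1 kb on each side of a start. Starts of 22 members came from the RefSeq promoter table, and for the other 16 both outer ends were used. Regions are peaks of the 6 distinct lists merged where they overlap. Intervals are exact Poisson or exact binomial (Clopper-Pearson) at 95%. Computations used Python 3.11.15, pandas 2.3.3, numpy 2.4.6 and scipy 1.17.1. Overlap counts were tested on simulated data and were equal to those of bedtools 2.31.1.

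Named genes are members with a peak in all lists or none, and members that differ between genotypes or between stages. The members and gene lists were chosen with earlier results of these data known. Alternatives were other window sizes, a 50% reciprocal overlap, peaks within 500 bp counted as shared, and flanks in place of the genome. The use of upstream ends alone and the counts without Hoxb were added after seeing the data.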

Additional observations from a re-analysis of the deposited data

Results flagged for a closer look

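Hoxb was singled out because the difference between the genotypes pointed in opposite directions at the 2 embryonic stages. The KO list held 5 Hoxb peaks against 6 in het at E13.5, a difference of -1, and 10 against 3 at E16.5, a difference of 7. With 1 list per group, this contrast between stages was not tested. At E13.5 the exact Poisson intervals of Hoxb, 2.2 to 13.1 in het and 1.62 to 11.7 in KO, overlapped almost fully. The direction there rests on a single peak, and Hoxd held 7 peaks in het and 5 in KO at that stage.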

How the results depend on the processing

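No paired analysis was possible because the lists hold 1 set of positions per group and nothing for single samples. No replicate could be left out either, and no stricter peak threshold was run because the lists have no score. Over 59 results, 129 alternative values were computed, of which 122 stayed within the spread allowed (the interval of the value, or 1.5 times a count) and 7 did not. With gene bounds plus 5 kb, 26 members had a peak in E13.5 KO in place of 17. With clusters widened by 20 kb, Hoxa held 8 peaks in E13.5 het in place of 5 and 7 at P0 in place of 4. Against flanks in place of the genome, the density ratio was 1.76 in E13.5 het, 1.57 in E13.5 KO and 1.44 at P0. Without Hoxb, 65.0% of P0 peaks overlapped an E16.5 het peak in place of 45.2%. The cause of these shifts was not tested, apart from the wider windows, which can only hold more peaks. The unknown depth and the fixed peak width limit every absence of a peak. The clusters hold few peaks and the intervals are wide, so staying within the spread allowed is a weak criterion. Without Hoxb, the KO-only share of E16.5 KO peaks was 26.9% in place of 41.7%, against 23.5% of the whole list. It still counted as within the spread, since the interval was 25.5 to 59.2%.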

Other observations

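The microRNA genes inside the clusters, which target Hox and other transcripts, had peaks nearby at some stages only. Mir10b, in Hoxd beside *Hoxd4*, had a peak within 2 kb in the 4 embryonic lists and none at P0 or P3. Mir10a, in Hoxb beside *Hoxb4*, had one in E13.5 KO, E16.5 het and E16.5 KO. Mir196a-1, in Hoxb, had one at P0 alone. Mir196a-2, Mir196b and Mir615 had none in any list. The nearest regions lay 990, 909 and 763 bp from Mir10b, Mir10a and Mir196a-1. Those near Mir10b and Mir10a are the regions inside *Hoxd4* and at the start of *Hoxb4*, already counted for these Hox genes. They are thus no separate observation, and no share over other short genes is given here. The miR-10 pair shares its seed (bases 2 to 8, capitals), and the miR-196a seed differs; mature sequences are from RefSeq, GRCm38.p6.
mmu-miR-10a-5p: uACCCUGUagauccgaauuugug
mmu-miR-10b-5p: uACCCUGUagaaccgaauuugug
mmu-miR-196a-5p: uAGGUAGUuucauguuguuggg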
